A study of Mus musculus with 12 samples.

Results

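Among liver enzymes that remove superoxide and peroxides, Gpx3 mRNA rose 8.14-fold in septic mice, while mRNA of Sod1 fell to 58.8% of the sham level. The mRNA of Aqp8, a channel for hydrogen peroxide, fell to 34.4% of the sham level. The account covers 10 genes, Sod1, Sod2, Cat, Gpx1, Gpx3, Gpx4, Prdx1, Prdx3, Prdx6 and Aqp8. They were found by their gene symbol among the 25611 genes of the read count table, where each has 1 row, and all 10 were among the 13190 genes that passed a filter on low read counts.

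Whole livers of male C57BL6J mice were sequenced in 3 groups of 4 mice. Sham mice underwent the surgical procedure alone, CLP mice were made septic by cecal ligation and puncture, and CLP+DCA mice had the same puncture and received dichloroacetate (DCA), an inhibitor of pyruvate dehydrogenase kinase, into the peritoneum 24 hr post-surgery. What sham and CLP mice were injected with is not given in the sources used here. All livers were harvested 30 hr post-surgery, and each library is 1 mouse. Whole liver holds hepatocytes together with Kupffer cells, endothelium, bile duct and blood cells, so fewer cells of a type and less RNA per cell cannot be told apart.

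Superoxide, a by-product of mitochondrial respiration and of phagocyte NADPH oxidase, is converted to hydrogen peroxide by superoxide dismutases. Hydrogen peroxide is then broken down by catalase in peroxisomes, reduced with glutathione by glutathione peroxidases, or reduced by peroxiredoxins, most of which use thioredoxin. Hepatocytes are rich in peroxisomes and make much of the body's glutathione. Aquaporin 8 is a membrane channel that lets water and hydrogen peroxide pass. Measured here was the mRNA of these genes, and not enzyme activity or peroxide.

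The glutathione peroxidases Gpx1, Gpx3 and Gpx4 carry selenocysteine in their active site, which is encoded by a TGA codon that ends translation in other mRNAs. In the annotation, these 3 members each had 1 TGA codon inside the reading frame, and the other 7 had 0. The sequence around it is shown because it is what these enzymes share and the other members lack. Each stretch runs 5′ to 3′ over 51 bases of the coding sequence on the plus strand of GRCm38 (mm10), with the selenocysteine codon in capitals.
Gpx1, exon 1 of 2, codon 47, chr9:108339427-108339477: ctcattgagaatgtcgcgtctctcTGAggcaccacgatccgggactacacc
Gpx3, exon 2 of 5, codon 73 at chr11:54907256-54907258, the stretch continuing across an intron into the next exon: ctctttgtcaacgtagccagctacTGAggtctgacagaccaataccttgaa
Gpx4, exon 3 of 7, codon 73, chr10:80054713-80054763: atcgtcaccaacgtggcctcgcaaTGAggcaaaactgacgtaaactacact
Gpx1 and Gpx4 had the same base at 29 of the 51 positions (56.9%), Gpx3 and Gpx4 at 26 (51.0%) and Gpx1 and Gpx3 at 24 (47.1%). These 3 mRNAs with a common codon did not move alike in sepsis, as the values of each show further on.

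Several libraries stood apart within their group, and the results are given with this in view. On the first principal component of log2 CPM over all tested genes (59.2% of the variance), scaled so that the mean of sham was 0 and that of CLP 1, the CLP mice lay at 0.669, 1.52, 0.645 and 1.16. CLP+DCA replicates 1, 2 and 4 lay at 0.227, 0.302 and 0.129, and CLP+DCA replicate 3 lay at 1.66, beyond every CLP mouse. CLP+DCA replicate 3 was also the outlying mouse of its group in 11.8% of tested genes by Dixon's test, against 0.212% to 0.842% for the other CLP+DCA mice. Each library held between 24436513 and 44266819 counted reads. The 10 members together took 0.664% ± 0.0538 (SD, n = 4) of the reads of a sham mouse, 0.371% ± 0.115 of those of a CLP mouse and 0.506% ± 0.157 of those of a CLP+DCA mouse, where replicate 3 held 0.271%.

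Per length, Gpx1, Sod1 and Cat were the most abundant mRNAs of the family in sham liver. Counts scaled by TMM-normalized library size (CPM) were divided by the length in kb of the annotated exons inside the counted span of each gene. This gave levels of 1337 ± 209 for Gpx1, 1163 ± 99.4 for Sod1, 899 ± 43.1 for Cat, 509.7 ± 12.9 for Prdx1, 197 ± 13.3 for Prdx6, 133 ± 13.8 for Gpx4, 65.1 ± 3.45 for Prdx3, 38.9 ± 1.84 for Sod2, 21.02 ± 8.26 for Aqp8 and 2.14 ± 0.468 for Gpx3 (CPM per kb, SD, n = 4). The sham values of Gpx1 and Sod1 overlapped, and those of every later neighbour in this order did not. With the length of the main transcript instead, the order was the same. In CLP liver, Gpx1 and Sod1 stood at 686 ± 237 and 684 ± 122 CPM per kb. Gpx3, the least abundant member in sham, reached 17.5 ± 7.14 CPM per kb in CLP, above Aqp8 at 7.18 ± 2.52, and the values of these 2 genes did not overlap there.

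Comparing CLP with sham asks how the family stood in septic liver. By edgeR's quasi-likelihood test on all 12 mice, 3 of the 10 members passed an adjusted p of 0.05 over all tested genes, Gpx3 upward and Sod1 and Aqp8 downward, where 2.78% of all tested genes passed. An unadjusted p under 0.05 was reached by 6 members (28.6% of all genes), 1 higher and 5 lower in CLP. The values of 7 members did not overlap between the groups (26.5% of all genes), 1 higher and 6 lower. The median log2 fold change was -0.46 over the members and 0.02 over all genes tested. In the plot of levels by mouse, 8 members had a lower mean in CLP, and Gpx3 and Sod2 a higher one.

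**Figure D1:**
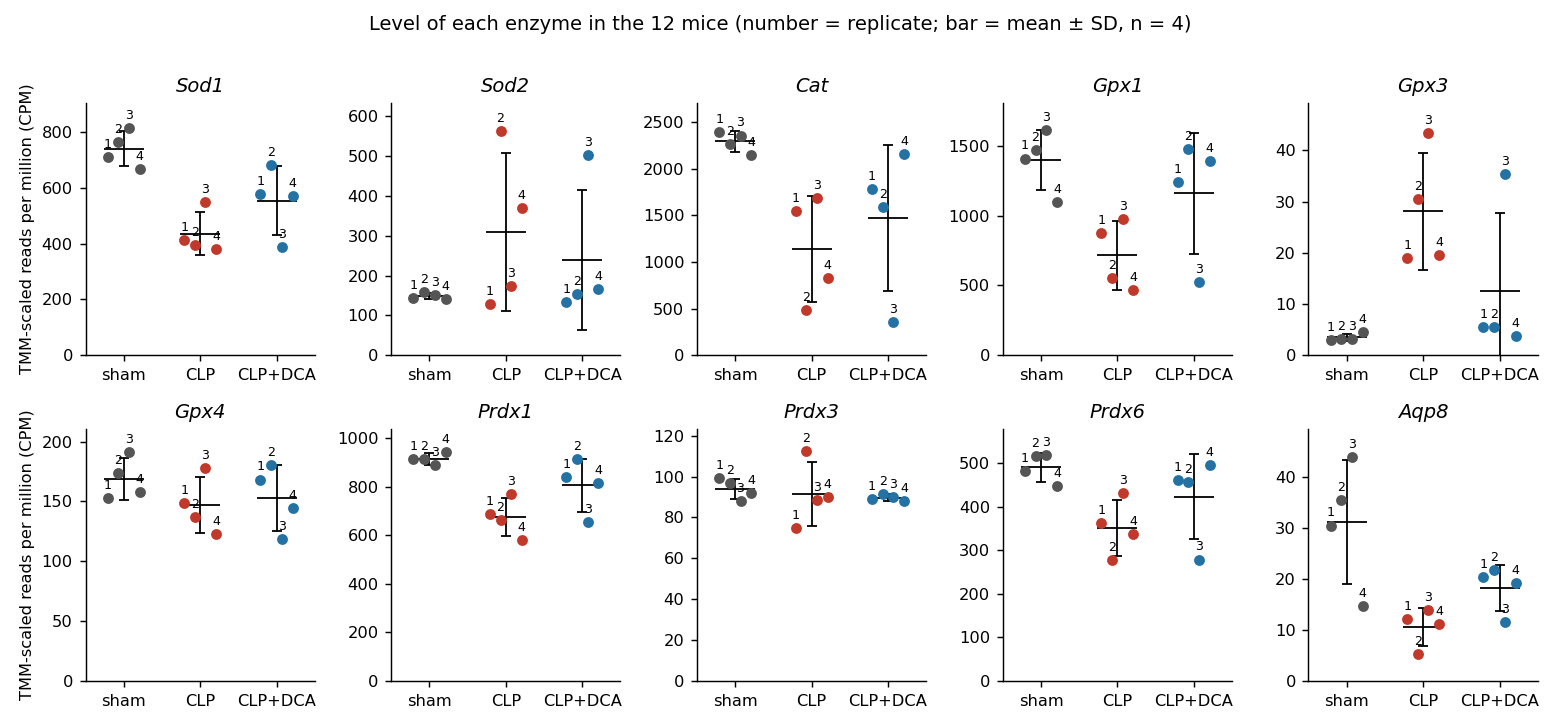
TMM-scaled counts (CPM, linear axes from 0) of each of the 10 genes in 4 sham, 4 CLP and 4 CLP+DCA mice. Each point is numbered by replicate, with bars for the mean ± SD (the lower bar of Gpx3 in CLP+DCA is cut at 0). CLP+DCA replicate 3 lies beyond the other 3 mice of its group for 9 of the 10 genes, on the side of the CLP mice, and Prdx3 is the exception.

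Sod1 encodes the copper and zinc dismutase of the cytosol (chr16:90220742-90226324). It stood at 712, 764, 815 and 669 CPM in the sham mice and at 414, 396, 550.0 and 380.0 CPM in the CLP mice. All CLP values lay below the lowest sham value. The log2 fold change was -0.77 (SE 0.18, adjusted p = 0.0478, edgeR).

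Sod2, the manganese dismutase of the mitochondrial matrix (chr17:13007839-13018119), was at 144, 157, 151 and 142 CPM in sham, a narrow range. In CLP it was at 129, 562, 174 and 369 CPM, so that replicates 2 and 4 stood high while replicate 1 lay below all sham mice. The mean of 309 ± 198 CPM in CLP against 149 ± 7.02 in sham (SD, n = 4) gave a log2 fold change of 1.05 with a 95% interval from -0.04 to 2.14, which did not pass (adjusted p = 0.187, edgeR). Without CLP replicate 2 the value was 0.59.

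Cat encodes catalase, the peroxisomal enzyme that splits hydrogen peroxide into water and oxygen (chr2:103453904-103485153). Sham values were 2398, 2269, 2356 and 2149.7 CPM, and CLP values 1551, 488, 1683 and 832 CPM. No CLP mouse reached the sham range, and replicates 2 and 4, the high ones for Sod2, were the low ones for Cat. The log2 fold change of -1.01 (SE 0.49, adjusted p = 0.192, edgeR) did not pass, with a standard deviation in CLP of 572 CPM against 109.9 CPM in sham.

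Gpx1, the most abundant glutathione peroxidase of cytosol and mitochondria (chr9:108339080-108340344), had 1409.7, 1472, 1615 and 1098 CPM in sham. CLP mice had 877, 550.5, 977 and 467 CPM, all below sham. At 51.3% of the sham level, its log2 fold change was -0.96 (SE 0.32, adjusted p = 0.0900, edgeR), which did not pass.

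Gpx3 encodes the secreted glutathione peroxidase of plasma (chr11:54902854-54910387), and its selenocysteine stretch is printed above. Sham mice had 2.98, 3.07, 3.17 and 4.57 CPM, which rested on 80 to 167 reads, and CLP mice had 18.9, 30.6, 43.3 and 19.5 CPM on 435 to 1792 reads. Each CLP mouse was over 4 times the highest sham mouse. The log2 fold change was 3.02 (SE 0.67, adjusted p = 0.0444, edgeR). Gpx4, which reduces lipid peroxides within membranes (chr10:80047166-80056439), was at 152, 174, 192 and 158 CPM in sham and at 149, 137, 178 and 123 CPM in CLP. The groups overlapped, and the log2 fold change of -0.20 had a 95% interval from -0.54 to 0.13 (adjusted p = 0.380, edgeR).

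The peroxiredoxins differed among themselves. Prdx1, a cytosolic peroxiredoxin (chr4:116685599-116700000), was at 912, 912, 887 and 943 CPM in sham, the tightest group of any member by relative spread in sham (2.52%). CLP mice were at 687, 661, 769 and 582 CPM, all lower, with a log2 fold change of -0.44 (SE 0.13, adjusted p = 0.0745, edgeR). Prdx6 (chr1:161240112-161251210), which also acts on phospholipid hydroperoxides, had 481, 516, 519 and 449 CPM in sham and 362, 277, 431 and 337 CPM in CLP. These ranges did not overlap, and the log2 fold change was -0.48 (SE 0.19, adjusted p = 0.122, edgeR). Prdx3, the peroxiredoxin of mitochondria (chr19:60864066-60874538), was at 99.2, 96.9, 88.2 and 91.8 CPM in sham and at 74.8, 112, 88.3 and 89.8 CPM in CLP. Its log2 fold change of -0.04 had the narrowest 95% interval of the members, from -0.29 to 0.20. Its sign turned to 0.04 without CLP replicate 1. Sod2 and Prdx3 were each highest of all 12 mice in CLP replicate 2, the CLP mouse with the least Cat.

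Aqp8 (chr7:123462294-123468003) had 30.5, 35.6, 44.0 and 14.8 CPM in sham and 12.1, 5.31, 14.0 and 11.2 CPM in CLP. Sham replicate 4 lay close to the CLP mice, yet the groups did not overlap. The log2 fold change was -1.54 (SE 0.35, adjusted p = 0.0464, edgeR), the largest decline among the members. Sod1, Gpx3 and Aqp8 all passed by a small margin. Leaving out any 1 of sham replicates 1, 2 or 3, or of CLP replicates 1, 2 or 4, ended all 3 calls. Leaving out CLP+DCA replicate 1 or 2 did so too. In these fits 0.0749% to 1.06% of all genes passed, against 2.78% with all 12 mice. Leaving out sham replicate 4 left 1 call, that of Aqp8 (0.255% of all genes). Over left-out mice the log2 fold changes ran from -0.90 to -0.71 for Sod1, 2.73 to 3.19 for Gpx3 and -1.78 to -1.33 for Aqp8. Without CLP+DCA replicate 3, which is not in this comparison but enters the estimate of the spread, 7 members passed (23.8% of all genes), as Cat, Gpx1, Prdx1 and Prdx6 joined downward.

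**Figure D2:**
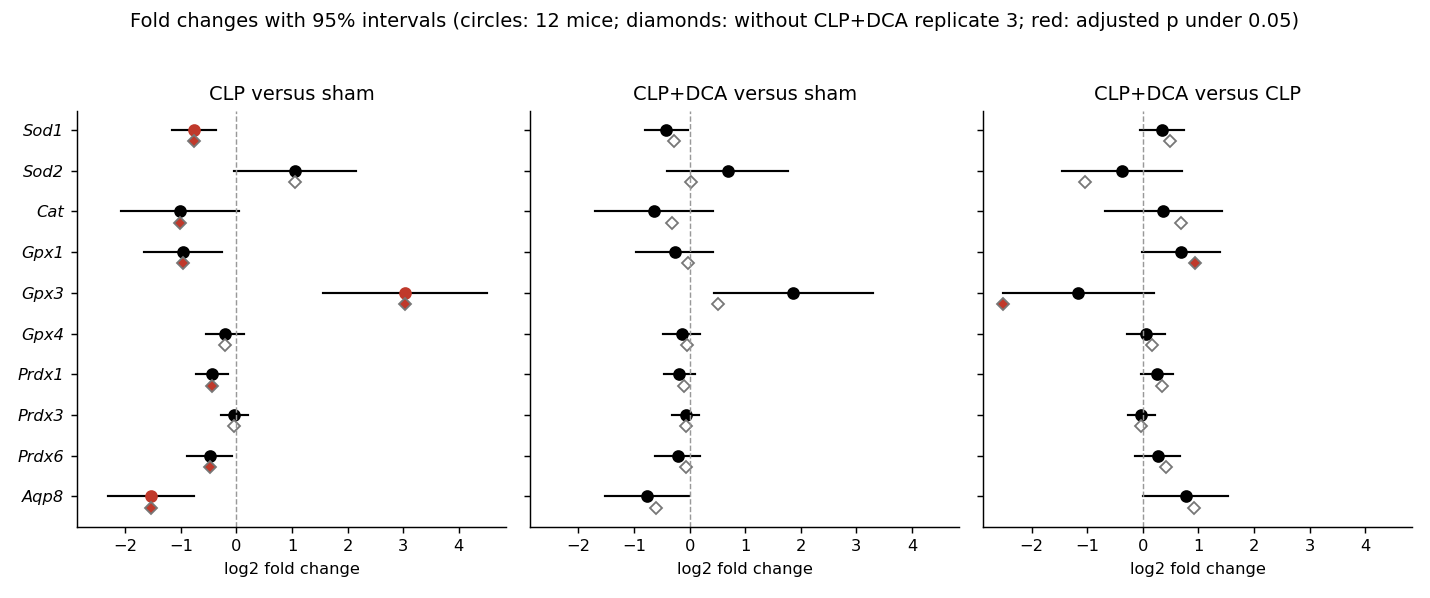
Log2 fold changes of the 10 genes in the 3 comparisons, as circles with 95% intervals from all 12 mice and as diamonds without CLP+DCA replicate 3. Red fill marks an adjusted p under 0.05 (edgeR). Circles of Sod1, Gpx3 and Aqp8 are red for CLP versus sham, and diamonds of Gpx1 and Gpx3 are red for CLP+DCA versus CLP.

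The mitochondrial dismutase was set against the cytosolic one, and the plasma peroxidase against the cellular one, within each mouse. Per 100 reads of Sod1, there were 20.3, 20.6, 18.5 and 21.2 reads of Sod2 in the sham mice. CLP mice had 31.3, 142, 31.6 and 97.1, all above sham, and in replicate 2 Sod2 outnumbered Sod1. The log2 ratio was higher by 1.59 in CLP, with p = 0.0286 in an exact two-sided permutation test, the smallest p that 4 against 4 mice allow, and 0.0571 after adjustment over the 4 ratio tests. Per 100 reads of Gpx1, reads of Gpx3 numbered 0.211, 0.209, 0.196 and 0.416 in sham and 2.16, 5.56, 4.43 and 4.19 in CLP. The log2 ratio was higher by 3.97 (exact permutation p = 0.0286, adjusted 0.0571). Every CLP mouse already lay above all sham mice for Gpx3 and below them for Gpx1, so this ratio could not overlap. Its p therefore repeats those results and is no separate support.

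Comparing CLP+DCA with sham and with CLP asks where the family stood after DCA. Both comparisons share mice with the one above. Against sham, 0 members passed the adjusted threshold (0.0379% of all genes), 3 had an unadjusted p under 0.05 (13% of all genes) and 0 had values without overlap (9.76% of all genes). Against CLP, 0 members passed (0.00758% of all genes), 1 had an unadjusted p under 0.05 (10% of all genes) and 0 were without overlap (4.37% of all genes). The 3 against sham were Gpx3, Sod1 and Aqp8, and the 1 against CLP was Aqp8, which was higher in CLP+DCA with a log2 fold change of 0.77 (SE 0.35, adjusted p = 0.497, edgeR). Median log2 fold changes over the members were -0.20 against sham and 0.26 against CLP, where all genes had 0.01 and 0.01.

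Mouse by mouse, CLP+DCA replicates 1, 2 and 4 stood together and replicate 3 stood with the CLP mice. Gpx3 was at 5.43, 5.55, 35.5 and 3.75 CPM, so that 3 mice lay below every CLP mouse and replicate 3 inside the CLP range. Sod2 was at 134, 152, 503 and 165 CPM, with 1 high mouse and 3 at or near the sham range. Cat was at 1780.3, 1593, 351 and 2155 CPM, and replicate 3 had the lowest catalase of all 12 mice.

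Gpx1 was at 1240.0, 1480.3, 526 and 1395 CPM in CLP+DCA, above every CLP mouse in replicates 1, 2 and 4. Sod1 was at 578, 682, 386 and 570.3 CPM, with replicates 1, 2 and 4 again above every CLP mouse. Sham replicate 4, the lowest sham mouse at 669 CPM, was passed by CLP+DCA replicate 2. Prdx1 was at 838, 912, 654 and 814 CPM, Prdx6 at 462, 458, 279 and 497 CPM and Gpx4 at 168, 180.5, 119 and 144 CPM. In all 3, replicate 3 was the lowest mouse of the group. Aqp8 was at 20.5, 21.7, 11.6 and 19.3 CPM, above the CLP mice except in replicate 3. Prdx3 at 88.9, 91.6, 90.2 and 88.2 CPM did not set replicate 3 apart.

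Without CLP+DCA replicate 3, 2 members differed between CLP+DCA and CLP (4.64% of all genes passed there). Gpx1 was higher in CLP+DCA by 0.93 on the log2 scale (SE 0.24, adjusted p = 0.0466, edgeR, 3 against 4 mice). Gpx3 was lower, with a log2 fold change of -2.52 (SE 0.31, adjusted p = 0.00779, edgeR). The other members did not pass, among them Sod1 at 0.49 (adjusted p = 0.0664), Prdx6 at 0.42 (adjusted p = 0.0843), Prdx1 at 0.34 (adjusted p = 0.0890) and Sod2 at -1.03 (adjusted p = 0.136). Against sham, 0 members passed without this mouse, and the values ran from -0.61 for Aqp8 to 0.51 for Gpx3, while Sod2 stood at 0.02 and Gpx1 at -0.03. The labels give no reason to set replicate 3 aside, so the fit with all 12 mice is the main one.

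The ratios showed the same split. Reads of Sod2 per 100 reads of Sod1 were 23.3, 22.3, 130.2 and 29.0 in CLP+DCA, and the log2 ratio differed from CLP by -0.70 (exact permutation p = 0.257). Reads of Gpx3 per 100 reads of Gpx1 were 0.438, 0.375, 6.75 and 0.269, a log2 difference from CLP of -2.38 (exact permutation p = 0.143, adjusted 0.190). Replicate 3 had the highest value of all 12 mice for the latter. Without it, the difference was -3.45 for Gpx3 to Gpx1 (exact permutation p = 0.0286) and -1.30 for Sod2 to Sod1 (exact permutation p = 0.114).

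**Figure D3:**
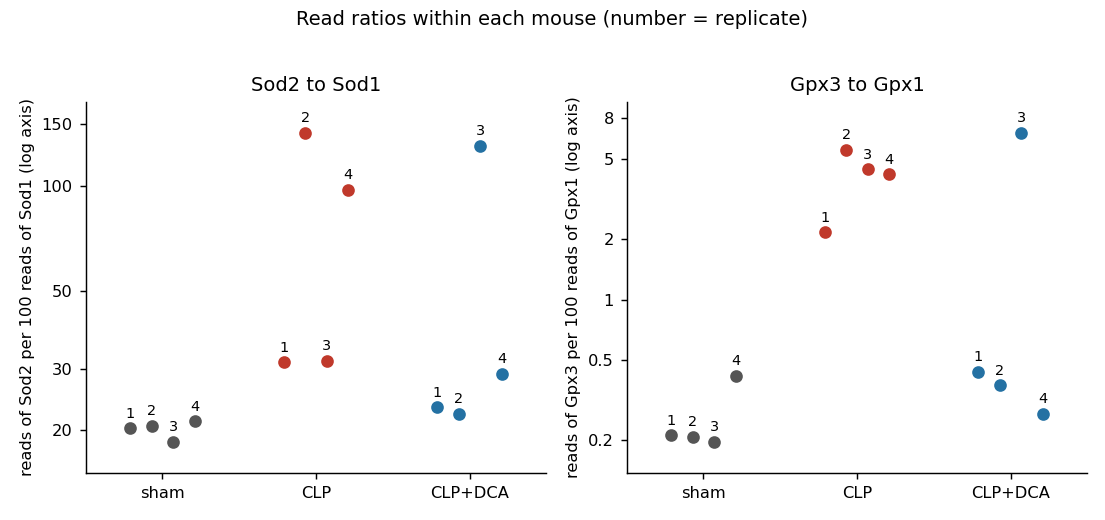
Reads of Sod2 per 100 reads of Sod1 (left) and of Gpx3 per 100 reads of Gpx1 (right) in each mouse, on log axes, with points numbered by replicate. All 4 CLP mice lie above all 4 sham mice in both, and CLP+DCA replicate 3 lies at 130.2 and 6.75, far above the other 3 CLP+DCA mice.

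Of the genes that supply, assist or oppose these enzymes, 91 were listed in 8 groups, and 80 passed the filter. In CLP versus sham 2 of the 80 passed the adjusted threshold, both downward (2.78% of all genes passed), and 28 had an unadjusted p under 0.05, 9 higher and 19 lower (28.6% of all genes). The median log2 fold change over the 80 was -0.24. No list gene passed in the other comparisons, where 13 of the 80 against sham and 4 against CLP had an unadjusted p under 0.05 (13% and 10% of all genes). By DESeq2 on all 12 mice, 1 passed in CLP+DCA versus sham and 0 in CLP+DCA versus CLP. Of all genes, 1.92% and 1.084% passed in these 2 comparisons by that method.

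Gclc, the catalytic subunit of the first enzyme of glutathione synthesis, fell from 231 to 136 CPM (log2 fold change -0.76, SE 0.15, adjusted p = 0.0295, edgeR). It was at 218, 227, 222 and 257 CPM in sham and at 151, 117, 151 and 126 CPM in CLP, and all 6 tested genes of the glutathione list had a lower mean in CLP, among them Cbs of transsulfuration at -0.46 (adjusted p = 0.0998). In CLP+DCA, Gclc was at 134, 124, 178 and 179 CPM, below every sham mouse, with replicate 3 among the higher ones. Uox, the urate oxidase that makes hydrogen peroxide in peroxisomes, fell from 1573 to 655 CPM (-1.26, SE 0.30, adjusted p = 0.0495, edgeR).

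In the list of enzymes that make superoxide or peroxide, 7 of 17 tested genes were higher and 10 lower in CLP. The higher ones included the phagocyte oxidase subunit Ncf1, at 4.92 CPM in CLP against 2.77 in sham (0.83, adjusted p = 0.0662). Of the thioredoxin, glutaredoxin and sestrin list, 0 of 14 passed and 11 were lower, with the thioredoxin reductases Txnrd2 at -0.32 (adjusted p = 0.0639) and Txnrd3 at -0.46 (adjusted p = 0.0702). Among the other dismutases and peroxidases, Prdx2 was at -0.47 (adjusted p = 0.107), and Gpx6, at 0.540 CPM in sham, at -1.26 (adjusted p = 0.178).

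Of the NADPH supply list, 0 of 7 passed. G6pdx of the pentose phosphate pathway was at 0.76 (adjusted p = 0.0756) and the cytosolic isocitrate dehydrogenase Idh1 at -0.49 (adjusted p = 0.0930). All but 1 of the 7 genes of selenoprotein synthesis and selenium supply had a lower mean in CLP, with Eefsec, the selenocysteine elongation factor, at -0.24 (adjusted p = 0.111) and Sepsecs at -0.33 (adjusted p = 0.222). In the peroxisome list, 0 of 17 passed, 5 were higher and 12 lower in CLP, and the median log2 fold change was -0.05. An unadjusted p under 0.05 was reached by 2 higher and 2 lower genes (28.6% of all genes). The 2 with the smallest p were higher, Pxmp4 at 0.73 (adjusted p = 0.0637) and Pex11a at 0.80 (adjusted p = 0.0722). Peroxisomal Cat and Uox were lower. Of 4 other aquaporins tested, Aqp1 was at 0.48 (adjusted p = 0.143) and Aqp11 at -0.56 (adjusted p = 0.432).

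**Figure D4:**
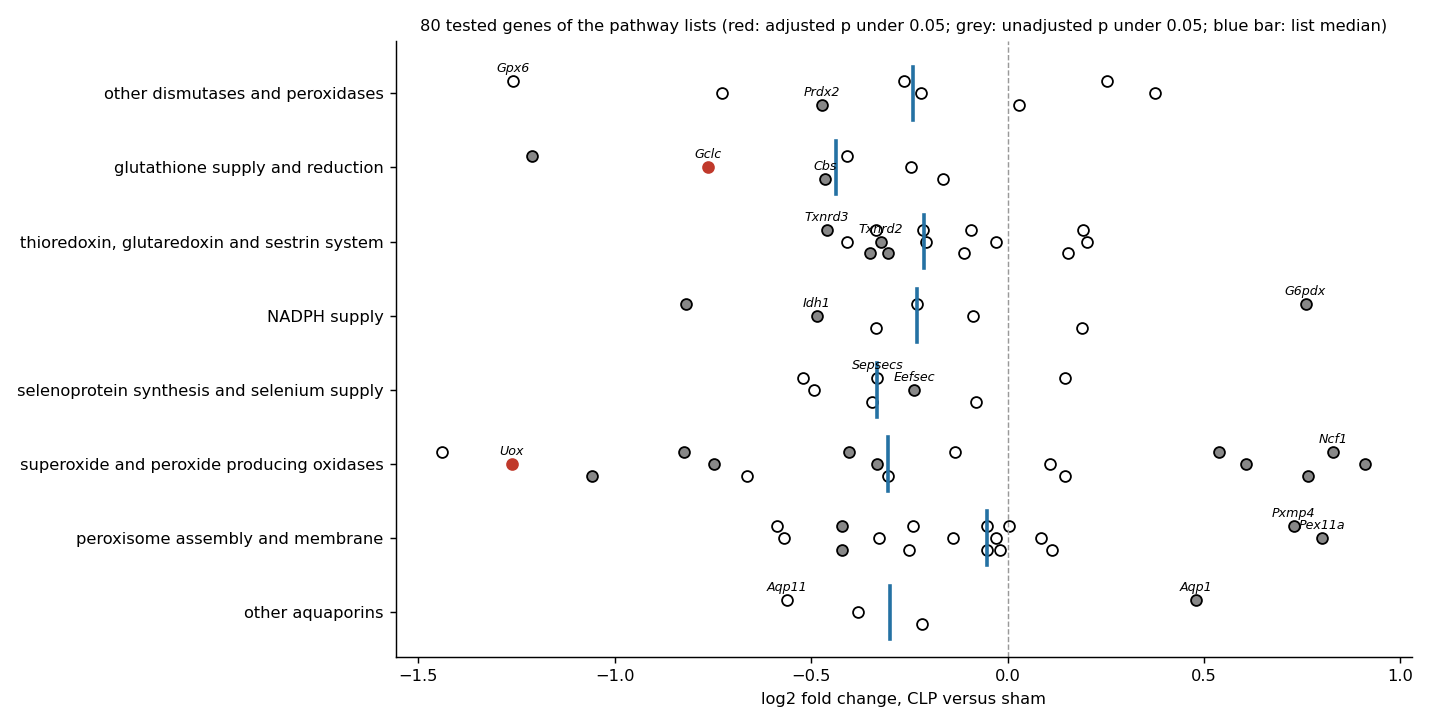
Log2 fold change, CLP versus sham, of the 80 tested genes in 8 lists, with a blue bar at each list's median, red points for an adjusted p under 0.05, grey points for an unadjusted p under 0.05 and open points for the rest. Gclc and Uox are the red points, and the list medians lie between -0.44 and -0.05.

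Summed markers of hepatocytes, neutrophils and monocytes, erythroid cells, lymphocytes and cholangiocytes did not overlap between sham and CLP, whereas those of Kupffer cells, endothelium, stellate cells, adipocytes and pancreas did. Summed over 7 hepatocyte markers, CPM ran from 54659 to 76786 in sham, from 27040.4 to 38064 in CLP and from 25131 to 49923 in CLP+DCA, with the lowest value in CLP+DCA replicate 3. Alb gave most of this sum, with medians of 44271 CPM in sham and 23264 in CLP. Of the 7, Alb and Ttr were without overlap between sham and CLP, both lower in CLP, while Hnf4a had medians of 709 and 734 CPM and Asgr1 of 534 and 457. Summed over 12 neutrophil and monocyte markers, CPM ran from 5.82 to 7.85 in sham, from 29.6 to 41.0 in CLP and from 5.59 to 56.9 in CLP+DCA, where replicate 3 had 56.9 and the others 5.59, 12.4 and 6.78. S100a8 and S100a9 made up most of this sum, and Mpo and Elane stayed below 0.52 CPM in every mouse. Ly6g, a marker of neutrophils, went the other way, with a median of 0.790 CPM in sham against 0.433 in CLP and 0.430 in CLP+DCA. Camp was at 0 in all sham mice. Gpx3 and this sum both had their 5 highest values in the 4 CLP mice and CLP+DCA replicate 3. The hepatocyte and erythroid sums had their 5 lowest values in the same mice. These mice also lay highest on the first principal component, so the shared order is not particular to the neutrophil and monocyte sum. The erythroid sum was from 79.0 to 87.3 CPM in sham and from 33.7 to 57.2 in CLP, but Alas2 alone gave nearly all of it, and the 4 globin genes were at 0 in every library. Cholangiocyte markers summed to 34.4 to 43.7 CPM in sham, 61.9 to 96.1 in CLP and 48.9, 66.2, 213 and 38.4 in CLP+DCA replicates 1 to 4. Spp1 and Sox9 gave most of it, with highest CLP+DCA values of 139 and 71.0 CPM. All 5 of these markers had a positive log2 fold change in CLP versus sham, and 4 did not overlap (26.5% of all genes). Krt19 was at 1.18 to 3.75 CPM in CLP against 0.558 to 0.848 in sham, and reached at most 0.827 CPM in CLP+DCA. Epcam overlapped between all groups. Lymphocyte markers summed to 1.31 to 2.85 CPM in sham and 0.449 to 1.11 in CLP. The part of these cell types in the changes of the members was not tested.

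For each member, the genes with the most similar pattern were sought by Pearson's r of log2 CPM over the 12 mice, among 9086 genes of at least 5 CPM. These values describe the 12 libraries, which lie in separate groups, and carry no test. Cat was closest to Ugt2b34 (0.998) and Keg1 (0.996), Sod1 to the respiratory chain genes Ndufa4 (0.99) and Ndufa10 (0.98), Prdx6 to Hsd11b1 (0.99) and Arl6ip1 (0.98), and Gpx1 to the methionine sulfoxide reductase Msra and to Cyp2c37 (0.98 each). Sod2 was closest to Tank and Spcs1 (0.97 each), Gpx3 to Npdc1 (0.97) and Slpi (0.96), Prdx1 to the ferritin gene Ftl1 and to Mrpl38 (0.97 each), Gpx4 to S100a16 (0.96) and Ptrhd1 (0.95), and Aqp8 to Ppcs (0.94) and Mapk15 (0.93). Prdx3, which varied least between groups, had the weakest matches, Tmbim4 (0.89) and Tsta3 (0.80). The 10 members thus had 20 different nearest genes.

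Promoter stretches of 300 bases, from 250 before to 50 after the start, were taken from RefSeq (GRCm38.p6) for 9 of the members. They were searched on both strands for motifs of factors known for antioxidant and inflammatory genes. The core of the antioxidant response element, TGACNNNGC, was present in promoters of 2 members, Prdx1 and Sod1, and in 12.4% of all 32851 promoters. The STAT motif TTCCNGGAA was in 0 of them and in 1.15% of all promoters. The NF-kappaB consensus was in promoters of 6 members, Cat, Prdx1, Aqp8, Gpx1, Gpx3 and Sod2, and in 8.46% of all promoters. Members with it were thus found among those with a higher and those with a lower mean in CLP. Members were counted as genes, whereas the shares over all are per promoter. The 9 members had 12 promoters, of which the 4 of Gpx4 held 0 matches. Shown are the matches in the 2 promoters with the antioxidant core and in that of Sod2, the member with the widest relative spread in CLP, with the match in capitals, 5′ to 3′ on the plus strand.
Prdx1, antioxidant core 133 bases before the start, chr4:116685441-116685499: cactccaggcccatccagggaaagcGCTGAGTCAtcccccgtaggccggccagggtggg
Sod1, antioxidant core 56 bases before the start, chr16:90220681-90220739: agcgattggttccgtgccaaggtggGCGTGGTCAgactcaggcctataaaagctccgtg
Sod2, NF-kappaB consensus 83 bases before the start, chr17:13007731-13007790: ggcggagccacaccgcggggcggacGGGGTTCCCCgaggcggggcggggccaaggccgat
A match describes the letters of the stretch and is not a measurement of binding. Sod1, with the antioxidant core, fell in CLP, and Prdx1, with it as well, was lower without passing.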

How the data were processed

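RNA of 12 whole livers was sequenced, 4 each from sham, CLP and CLP+DCA mice. Per the labels, libraries were made with the TruSeq kit. According to the submitters' processing notes, reads were aligned with STAR 2.5 to mm10 and counted with featureCounts (Subread 1.5.0-p1). The authors deposited these unnormalized read counts per gene with NCBI Gene identifiers. The annotation and the strand setting are not given in the sources used here, so reads of a gene and of an antisense partner may not be separated; the table's genes that overlap a member held at most 24 reads in a mouse. Reads shared by near copies may be lost or split.

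Counts were filtered with filterByExpr (minimum count 10, leaving 13190 genes), TMM-normalized and tested with edgeR 4.0.16 (robust quasi-likelihood, 1 fit of 12 mice, Benjamini-Hochberg FDR of 0.05, R 4.3.3). Depth was 24436513 to 44266819 reads per mouse. Because the reads carry no molecular identifiers, copies of 1 molecule cannot be told from separate molecules; errors are therefore the spread between mice. SE is the log2 fold change divided by the square root of F. Ratios of reads used a pseudocount of 0.5 and exact permutation tests. Lengths and reading frames came from GENCODE annotation of GRCm38, exons being restricted to the counted span. The scripts were tested on simulated data. Alternatives were DESeq2 1.42.0, voom (limma 3.58.1), other normalizations and filters, the 8 mice compared, a replicate block, and leaving out each mouse. Replicate numbers were not taken as pairs, since the labels name no pairing and livers of the same number did not regularly deviate together.

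Named are all 10 members, of each of 8 pathway lists the 2 genes with the smallest p in CLP versus sham and any past the threshold, and the 2 genes most like each member. Some gene names were added as examples after values were seen, all of them markers. The members and lists were chosen with earlier results of these data known. The RefSeq promoter table gave 9 of 10 members, and Prdx6 was not among them.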

Additional observations from a re-analysis of the deposited data

Results flagged for a closer look

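In 3 of the 30 groups of 4 mice formed by the 10 members, 1 mouse lay far from the other 3 by Dixon's test. The nominal rate of this test is about 1 of 20 groups. Over all tested genes, sham replicates 1 to 4 were outlying in 0.933%, 1.05%, 1.78% and 1.96%. CLP replicates 1 to 4 were outlying in 0.508%, 1.62%, 2.31% and 0.895%, and CLP+DCA replicates 1 to 4 in 0.212%, 0.478%, 11.8% and 0.842%. In CLP+DCA the share over all genes was thus above the nominal rate too. Gpx3 was at 4.57 CPM in sham replicate 4, where the other sham mice had 2.98 to 3.17 CPM. Gpx3 was at 35.5 CPM in CLP+DCA replicate 3, where the other CLP+DCA mice had 3.75 to 5.55 CPM. Sod2 was at 503 CPM in the same mouse, where the others had 134 to 165 CPM. That mouse was the outlying one of its group in 11.8% of all tested genes. Sham replicate 4, outlying in 1.96% of all tested genes, also had the least Aqp8 and the least Gpx1 of the sham mice, at 14.8 and 1098 CPM.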

How the results depend on the processing

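The direction of each member in CLP versus sham was kept under all 22 alternatives, except that Prdx3 turned to 0.0418 without CLP replicate 1 (range over left-out mice -0.158 to 0.0418). The count of members past the threshold in CLP versus sham, 3 in the fit of 12 mice, was 5 with DESeq2 on all 12 mice, 7 with voom, 0 with library size alone, 0 without a filter, 6 with edgeR and 8 with DESeq2 on the 8 mice compared, and 0 to 7 when each mouse was left out in turn. The share of all genes that passed moved too, from 2.78% in the fit of 12 mice to 14.6% with DESeq2 on all 12 mice, 25.9% with voom, 1.58% with library size alone, 0.647% without a filter, and 18.3% with edgeR and 26.1% with DESeq2 on the 8 mice. The count of pathway list genes, 2 in that fit, was 17, 38, 1 (without a filter), 25 and 35 under these, and 0 to 31 when each mouse was left out, with 31 reached without CLP+DCA replicate 3. When each mouse was left out, 0.0749% to 23.8% of all genes passed in CLP versus sham. With the replicate number as a block, 0 members and 0 list genes passed (0.349% of all genes). The correlation of deviations between livers of the same number ran from -0.459 to 0.55. Of 12 pairs of same-number livers over the comparisons, 3 correlated better than the first liver did with the other numbers. These correlations cannot settle whether the design was paired, and the labels name no pairing. With the block, the log2 ratios of Sod2 to Sod1 (1.59) and of Gpx3 to Gpx1 (3.97) had p = 0.125, the smallest exact p that 4 pairs allow. Leaving out each mouse, the ratio of Sod2 to Sod1 in CLP versus sham ranged from 1.19 to 1.91, with exact p up to 0.0857, and that of Gpx3 to Gpx1 in CLP+DCA versus CLP from -3.45 to -1.90. In CLP+DCA versus sham, list genes numbered 1 with DESeq2 on all 12 mice, 6 with voom and 1 with DESeq2 on the 8 mice. Of all genes, 1.92%, 3.59% and 1.34% passed in these fits. The sign turned in this comparison for Gpx4 (0.0051) and Sod2 (-0.0273) with voom. In CLP+DCA versus CLP, 5 members and 4 list genes passed with voom, where 9.76% of all genes passed. Members ranged from 0 to 2 when each mouse was left out, with 2 reached without CLP+DCA replicate 3 (4.64% of all genes). In CLP+DCA versus CLP the sign turned for Gpx4 without CLP replicate 4 (-0.016) and without CLP+DCA replicate 2 (range over left-out mice -0.0428 to 0.165). It turned for Sod2 without CLP replicate 2 (range -1.03 to 0.0929). For Prdx3 it turned with voom (0.0458), with library size alone (0.0985) and without CLP replicate 2 (range -0.110 to 0.0902). Library size alone moved the median of all genes to -0.15 in CLP versus sham and to 0.12 in CLP+DCA versus CLP. The causes of these shifts were not tested. Fewest reads were counted for Aqp8 (111 in CLP replicate 2) and Gpx3 (80 in sham replicate 1), where counting error is largest.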
